A study of Schmidtea mediterranea with 11 samples.

Results

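The whole-worm transcriptome of *mbnl(RNAi)* planarians was set against that of *control(RNAi)* planarians at days 20, 25 and 30 of the knockdown. These 6 libraries, of 11 in the series, hold 1 library per group and day. Transcripts were kept where the mean log2(TPM+1) over the 6 libraries was above 1.5, which left 15636 of 26562. TPM is the share of a library that a transcript takes after correction for its length, scaled so that a library sums to 1000000. The species is the planarian *Schmidtea mediterranea*. Adults of Berlin-1 were used, a strain that reproduces asexually and goes back to 1 founder. The *mbnl(RNAi)* worms were injected with double-stranded RNA (dsRNA) against 4 *mbnl* homologues together, and the *control(RNAi)* worms with dsRNA for GFP, a protein that planarians lack. Poly(A) RNA was sequenced from whole bodies, so fewer cells of a type and less RNA per cell cannot be told apart. TPM keeps no read counts, so the depth behind a value is unknown here. 3 libraries of *bruli(RNAi)* worms, injected with dsRNA against the *bruno-like* gene *bruli* and taken on the same days, are used where the 2 knockdowns are compared.

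Muscleblind-like (MBNL) proteins bind RNA through zinc fingers of the CCCH type. In mammals they regulate alternative splicing and mRNA localization during differentiation, and they favour the exon choices of differentiated cells over those of stem cells. CELF proteins, to which BRULI belongs, often act on the same exons in the opposite direction. In planarians the stem cells, called neoblasts, are the only dividing cells of the body and renew all tissues. The comparison asks how the transcript levels of stem cells, their progeny and other cells stand once the *mbnl* genes have been knocked down.

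The dsRNAs define the treatment, so the primer pairs that bound them are shown, forward and reverse, each written 5′ to 3′ in lower case. The study's primer list holds 2 pairs for *mbnl-1*, the second marked with a star there, because an older transcriptome split this locus into 2 transcripts.
mbnl-1, forward: tgctatagcgccatattctcaa
mbnl-1, reverse: gctgatcttgctggaattaggt
mbnl-1, second pair, forward: acggaacccagatcaattacag
mbnl-1, second pair, reverse: caccaggcaataaagtatgcaa
mbnl-like-1, forward: ttccacagcttctaacgatcaa
mbnl-like-1, reverse: ctattggaagccactgaaatcc
mbnl-like-2, forward: gcggacgagtgatatgttgtta
mbnl-like-2, reverse: gcggagttatcaataaggcatc
mbnl-like-3, forward: ctgctggggtgtttgatagata
mbnl-like-3, reverse: ccctcaacagctgtgtcattta

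Transcript levels of 3 of the 4 targeted genes fell in *mbnl(RNAi)* worms, and *mbnl-like-3* did not pass the test. *mbnl-1* (comp2838_c0_seq1) stood at 28.9, 23.4 and 24.3 TPM in *mbnl(RNAi)* worms at days 20, 25 and 30, against 50.2, 53.04 and 50.7 TPM in *control(RNAi)* worms. The groups did not overlap, and the *mbnl(RNAi)* level was 57.6%, 44.1% and 47.9% of the control of its day. *mbnl-like-1* (comp7489_c0_seq1) had 4.69, 4.01 and 3.31 TPM in *mbnl(RNAi)* worms, against 18.7, 18.5 and 17.8 TPM in *control(RNAi)* worms. It kept the smallest share of the 4 genes at each day, 25.1%, 21.7% and 18.6% of control. *mbnl-like-2* (comp4169_c0_seq1) had 13.2, 7.63 and 9.51 TPM in *mbnl(RNAi)* worms, against 32.5, 29.5 and 31.5 TPM in *control(RNAi)* worms. The 2 groups stood apart here too, with the day 20 library the highest of the 3 knockdown libraries.

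*mbnl-like-3* (comp17985_c0_seq1) was the weakest of the 4 in both groups. Its level was 2.78, 1.62 and 2.81 TPM in *mbnl(RNAi)* worms, against 2.67, 2.03 and 3.03 TPM in *control(RNAi)* worms, and the groups overlapped. In both groups the order of the mean levels was *mbnl-1*, *mbnl-like-2*, *mbnl-like-1* and *mbnl-like-3*. The means were 25.5 ± 2.96, 10.1 ± 2.83, 4.01 ± 0.692 and 2.40 ± 0.680 TPM in *mbnl(RNAi)* worms and 51.3 ± 1.51, 31.2 ± 1.48, 18.3 ± 0.462 and 2.58 ± 0.508 TPM in *control(RNAi)* worms (SD, n = 3 each). No 2 neighbours in this order shared a value within a group.

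**Figure D1:**
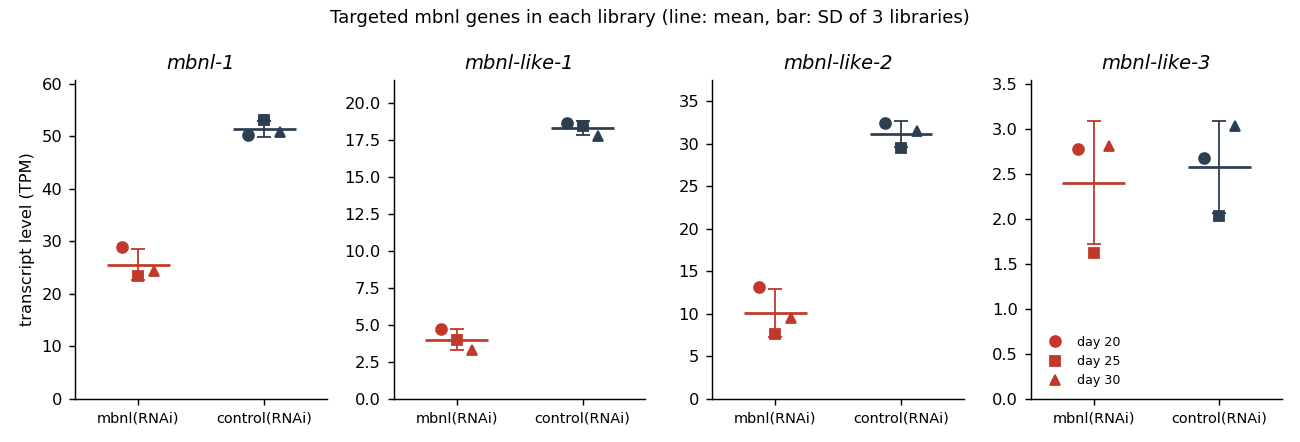
TPM of the 4 targeted genes in each library, with *mbnl(RNAi)* on the left and *control(RNAi)* on the right of each panel. Symbols mark the day, the line the mean and the bar the SD of 3 libraries; the groups stand apart for *mbnl-1*, *mbnl-like-2* and *mbnl-like-1* and overlap for *mbnl-like-3*.

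Differences were tested with limma on log2(TPM+1), with each library centred on its median and the day as a block, with Benjamini-Hochberg adjustment of the p-values over all 15636 transcripts. A log2 fold change is the mean of *mbnl(RNAi)* minus *control(RNAi)* relative to the median transcript, and it understates changes of weak transcripts because of the pseudocount of 1. The 3 days served as replicates; nothing says that they came from separate cohorts, so p-values measure only the spread between these libraries. *mbnl-1* fell by 1.12 on this scale (standard error, SE, 0.09, limma's adjusted p = 0.00766). *mbnl-like-1* fell by 2.09 (SE 0.12, limma's adjusted p = 0.00273) and *mbnl-like-2* by 1.69 (SE 0.12, limma's adjusted p = 0.00456). *mbnl-like-3* had a log2 fold change of -0.22 with a 95% confidence interval of -0.70 to 0.27 (adjusted p = 0.646 from limma). In a contrast that uses the same *mbnl(RNAi)* libraries, all 3 genes that fell were also lower than in *bruli(RNAi)* worms, by -1.24 for *mbnl-1*, -1.69 for *mbnl-like-2* and -2.03 for *mbnl-like-1* (adjusted p = 9.12e-05, 7.51e-05 and 4.47e-05 from limma). The size of the difference from control did not change with the day past the test for any of the 4 genes (adjusted p of 0.707 to 0.974 from limma). Without the mean-variance trend *mbnl-1* and *mbnl-like-2* missed the threshold (adjusted p = 0.0827 and 0.0703 from limma), and *mbnl-like-1* was called under all 16 alternatives tried.

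Over the whole transcriptome the test called 423 of 15636 transcripts (2.71%). Of these, 313 (2.0%) were lower and 110 (0.704%) higher in *mbnl(RNAi)* worms. The lower transcripts had a median log2 fold change of -0.60, with 61 beyond 1 and 8 beyond 2, and the higher ones a median of 0.67, with 27 beyond 1 and 1 beyond 2. At an unadjusted p under 0.05, 1784 (11.4%) were lower and 1106 (7.07%) higher. The values of all 3 *mbnl(RNAi)* libraries lay below all 3 *control(RNAi)* libraries for 2095 transcripts (13.4%) and above them for 1223 (7.82%), on the centred scale. Together the 313 lower transcripts took 8.62%, 7.38% and 6.88% of the TPM at days 20, 25 and 30 in *mbnl(RNAi)* worms, against 11.2%, 10.5% and 11.0% in *control(RNAi)* worms. The 110 higher ones took between 0.595% and 0.722% in *mbnl(RNAi)* worms, against 0.340% to 0.408% in *control(RNAi)* worms. Both sets were chosen in these same libraries, so the direction of their shares follows from the choice.

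How many were lower and how many higher depended on the scale of the libraries. The median level over these transcripts was higher in *mbnl(RNAi)* than in *control(RNAi)* worms by 0.17, 0.11 and 0.12 on the log2 scale at days 20, 25 and 30, and centring takes this shift out. Without centring 96 transcripts (0.614%) were lower and 207 (1.32%) higher, and after quantile normalization of the 6 libraries 100 (0.640%) were lower and 79 (0.505%) higher. With the controls alone quantile-normalized, as the study did, 155 (0.991%) were lower and 332 (2.12%) higher. Under all 4 scalings 80 transcripts (0.512%) were called lower and 66 (0.422%) higher, and the 80 held *mbnl-1*, *mbnl-like-2* and *mbnl-like-1*. The 423 calls became 225 without the day as a block and 3 without the mean-variance trend. They became 766 without *mbnl(RNAi)* day 20 and 768 without *control(RNAi)* day 20, but 152 and 147 without *mbnl(RNAi)* day 25 or 30 and 143 and 120 without *control(RNAi)* day 25 or 30.

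On the centred scale lower transcripts were more frequent among those of high level, and this was not counted under the other scalings. Of 1484 transcripts with a mean over 100 TPM, 130 (8.76%) were lower and 12 (0.809%) higher, and the median log2 fold change was -0.11. Of 8732 transcripts between 10 and 100 TPM, 159 (1.82%) were lower and 84 (0.962%) higher, with a median of -0.01. Below 10 TPM 24 of 5420 (0.443%) were lower and 14 (0.258%) higher, with a median of -0.02. The 10 most abundant transcripts of a library took 8.53% to 9.16% of the TPM in *mbnl(RNAi)* worms, against 9.80% to 10.3% in *control(RNAi)* worms; their part in the level of other transcripts was not tested.

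**Figure D2:**
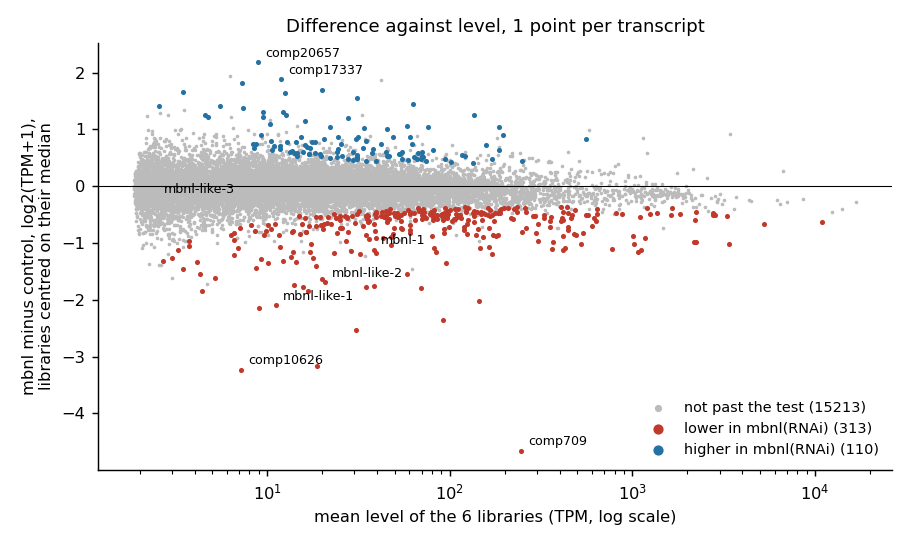
Log2 fold change of each of 15636 transcripts (vertical, *mbnl(RNAi)* minus *control(RNAi)*, libraries centred) against its mean TPM over the 6 libraries (horizontal, log scale). Red points are the 313 lower and blue points the 110 higher transcripts; 130 red points lie to the right of 100 TPM, where they are 8.76% of the transcripts, and comp709 lies lowest.

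Single days have no test, since each holds 1 library per group, and were counted with a threshold of 0.7 on the log2 scale. The study used it for lower transcripts only, over its own filtered set. Here it was applied on both sides and to the transcripts tested here. With the controls quantile-normalized, 460 (2.94%), 245 (1.57%) and 360 (2.30%) transcripts were past it on the lower side at days 20, 25 and 30, and 725 (4.64%), 658 (4.21%) and 875 (5.60%) on the higher side. With every library centred instead, the counts were 534 (3.42%), 484 (3.10%) and 549 (3.51%) on the lower side and 595 (3.81%), 281 (1.80%) and 513 (3.28%) on the higher side. Past the threshold at all 3 days were 41 transcripts (0.262%) on the lower side and 55 (0.352%) on the higher side with the quantile-normalized controls, and 72 (0.460%) and 27 (0.173%) with centring.

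Because each day compares its own pair of libraries, the days can be set against each other. On the centred scale 156 transcripts were past the threshold on the lower side at both day 25 and day 30, which is 32.2% of the 484 at day 25 and 28.4% of the 549 at day 30. Of all transcripts 3.51% were that low at day 30 and 3.10% at day 25. Day 20 shared 141 with day 25 and 129 with day 30, or 26.4% and 24.2% of its own 534. On the higher side 95 were shared by days 25 and 30, or 33.8% of 281 and 18.5% of 513. There day 20 shared 64 with day 25 and 84 with day 30, or 10.8% and 14.1% of its 595. Of all transcripts 3.28% were that high at day 30 and 1.80% at day 25. Across the 15636 transcripts, which are not independent of each other, the differences of 2 days had a Pearson correlation of 0.40 for days 25 and 30, 0.30 for days 20 and 25 and 0.25 for days 20 and 30.

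The largest changes belonged to transcripts that the tables used here do not pair with a gene name, and 2 are given in each direction by their assembly identifiers. comp709_c0_seq1 had 64.6, 23.9 and 3.90 TPM in *mbnl(RNAi)* worms at days 20, 25 and 30, 481, 647 and 480.4 TPM in *bruli(RNAi)* worms and 387, 500.2 and 500.0 TPM in *control(RNAi)* worms. The *mbnl(RNAi)* level was 16.7%, 4.77% and 0.781% of the control of its day and lay far below both other groups at each day. In the *Smed-H2B(RNAi)* and *Smedwi-2(RNAi)* libraries of the series, which entered no test, it stood at 596 and 259 TPM. comp709_c0_seq1 fell by 4.66 on the log2 scale against *control(RNAi)* (SE 0.64, limma's adjusted p = 0.0280). In a contrast that uses the same *mbnl(RNAi)* libraries, it was lower by 4.91 than in *bruli(RNAi)* worms (adjusted p = 0.00162 from limma). Its difference from *control(RNAi)* also grew with time, by -4.05 per 10 days (SE 0.22, limma's adjusted p = 0.0449), with daily differences of -2.74, -4.44 and -6.79. It was the only transcript of 15636 (0.00640%) to pass the test of change with day, and 1530 (9.79%) had an unadjusted p under 0.05 there. That fit left 1 residual degree of freedom, and without the trend 0 transcripts passed in limma, 1331 had an unadjusted p under 0.05 and comp709_c0_seq1 had an adjusted p = 0.540.

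comp10626_c0_seq1 was at 1.05 and 1.37 TPM in *mbnl(RNAi)* worms at days 20 and 25 and listed at 0 at day 30, against 14.7, 12.7 and 13.1 TPM in *control(RNAi)* worms. The groups did not overlap, and it fell by 3.23 on the log2 scale (SE 0.26, limma's adjusted p = 0.00704), but by 1.79 with a pseudocount of 5. Among the higher transcripts, comp20657_c0_seq1 had 12.7, 14.5 and 19.4 TPM in *mbnl(RNAi)* worms, against 2.69, 2.48 and 1.73 TPM in *control(RNAi)* worms. Its log2 fold change of 2.19 (SE 0.22, limma's adjusted p = 0.0123) was the largest increase past the test, and it was 1.37 with a pseudocount of 5. comp17337_c0_seq1 had 19.4, 23.1 and 16.3 TPM in *mbnl(RNAi)* worms, against 2.48, 4.03 and 6.37 TPM in *control(RNAi)* worms, a log2 fold change of 1.88 (SE 0.24, limma's adjusted p = 0.0257). The lowest *mbnl(RNAi)* value of each was above its highest *control(RNAi)* value. Against *bruli(RNAi)* worms all 4 transcripts differed in the same direction (adjusted p of 0.000346 to 0.00196 from limma). That contrast uses the same *mbnl(RNAi)* libraries by which the 4 were picked, so their direction there is not independent of the choice. None of the 4 passed against control without the trend (adjusted p of 0.0703 to 0.142 from limma).

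**Figure D3:**
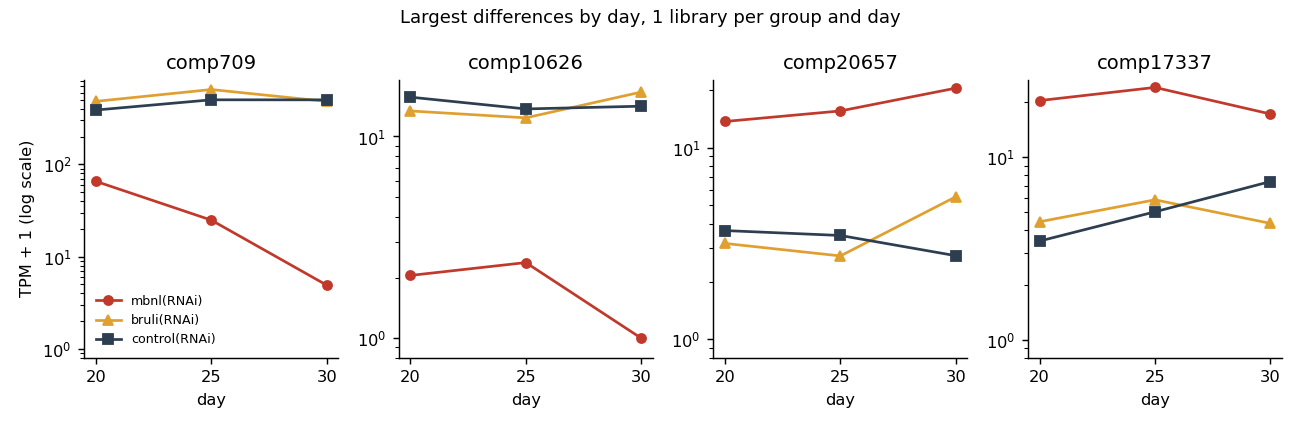
TPM + 1 (log scale) at days 20, 25 and 30 for the 2 unnamed transcripts with the largest decrease and the 2 with the largest increase, 1 library per point, in *mbnl(RNAi)* (red), *bruli(RNAi)* (orange) and *control(RNAi)* (blue) worms. For comp709 the *mbnl(RNAi)* level stood at 64.6, 23.9 and 3.90 TPM, while the *bruli(RNAi)* and *control(RNAi)* libraries stood between 387 and 647 TPM.

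The study's table of RNA-binding proteins (RBPs) holds 300 transcripts, of which 286 passed the filter on low values. Of these, 3 were lower and 4 higher in *mbnl(RNAi)* worms, and the median log2 fold change was -0.01, beside -0.02 over all transcripts tested. Those shares of 1.05% and 1.40% stand beside a background of 2.0% lower and 0.704% higher. 2 of the 3 lower RBPs were *mbnl-1* and *mbnl-like-1* themselves, and the third was comp1929_c0_seq1, whose best human hit is ABT1, a nucleolar protein. comp1929_c0_seq1 had 103.9, 91.3 and 97.9 TPM in *mbnl(RNAi)* worms, against 123, 139 and 131 TPM in *control(RNAi)* worms. The groups did not overlap, and the log2 fold change was -0.55 (SE 0.08, limma's adjusted p = 0.0302). Its *bruli(RNAi)* levels were 111, 85.2 and 85.4 TPM. Between the knockdowns it did not differ past the test (difference -0.12, adjusted p = 0.359 from limma).

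A list of RBPs enriched in differentiated cells rests on sorted cells, not on these libraries. It holds 43 transcripts, of which 42 were tested. Of the 42, 1 (2.38%) was lower, *mbnl-1*, and 3 (7.14%) were higher, beside 2.0% and 0.704% of all transcripts. Of the same 42, 25 had a fold change below 0, or 59.5% beside 54.4% of all transcripts, and the median was -0.05. At an unadjusted p under 0.05 in limma, 8 (19%) were lower and 4 (9.52%) higher, beside 11.4% and 7.07%. comp3575_c0_seq1, an RBP with no human hit listed, had 27.4, 29.0 and 37.4 TPM in *mbnl(RNAi)* worms, against 15.6, 19.2 and 18.1 TPM in *control(RNAi)* worms. The log2 fold change was 0.65 (SE 0.11, limma's adjusted p = 0.0372), and its lowest *mbnl(RNAi)* value stood above the highest control value. Its *bruli(RNAi)* levels were 21.5, 29.8 and 30.1 TPM. Between the knockdowns it did not differ past the test (difference 0.02, adjusted p = 0.903 from limma). comp4296_c0_seq1, whose best human hit is RBPMS, an RNA-recognition-motif protein, had 63.3, 61.6 and 73.0 TPM in *mbnl(RNAi)* worms, against 39.4, 42.3 and 46.9 TPM in *control(RNAi)* worms. The groups again stood apart, with a log2 fold change of 0.48 (SE 0.08, limma's adjusted p = 0.0347). In the contrast that uses the same *mbnl(RNAi)* libraries, it was also higher than in *bruli(RNAi)* worms, by 0.33 (adjusted p = 0.00939 from limma). Its *bruli(RNAi)* levels were 46.9, 42.4 and 48.8 TPM.

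Among 60 tested transcripts of RNA helicases, enzymes that unwind RNA with the energy of ATP, 0 were lower and 2 (3.33%) were higher in limma, beside 2.0% lower and 0.704% higher over all transcripts. At an unadjusted p under 0.05, 7 (11.7%) were lower and 6 (10%) higher, beside 11.4% and 7.07%. comp12329_c0_seq1, whose best human hit is the spliceosomal helicase DHX8, had 16.2, 19.0 and 16.9 TPM in *mbnl(RNAi)* worms, against 10.3, 11.3 and 8.26 TPM in *control(RNAi)* worms. Its log2 fold change was 0.62 (SE 0.12, limma's adjusted p = 0.0488). The same human protein is the best hit of 5 other transcripts in the table, none of which passed the test. comp3817_c0_seq1, whose best human hit DDX3Y is a DEAD-box helicase of translation, had 63.6, 77.4 and 73.1 TPM in *mbnl(RNAi)* worms, against 42.4, 48.7 and 49.9 TPM in *control(RNAi)* worms. It rose by 0.46 on the log2 scale (SE 0.08, limma's adjusted p = 0.0376). Neither helicase differed between the *mbnl* and *bruli* knockdowns past the test, with differences of -0.09 and -0.08 (adjusted p = 0.678 and 0.521 from limma).

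The core of the spliceosome, the machine that removes introns, showed few calls. Of its 77 transcripts 1 was lower, a share of 1.30% beside the 2.0% of all transcripts, and 0 were higher in limma. At an unadjusted p under 0.05, 6 (7.79%) were lower and 3 (3.90%) higher, beside 11.4% and 7.07%. The called transcript was comp1153_c0_seq1, which the study lists under the orthology identifier K12855. It had 121, 118 and 114 TPM in *mbnl(RNAi)* worms, against 153, 140.3 and 157 TPM in *control(RNAi)* worms, and the groups did not overlap. It fell by 0.48 on the log2 scale (SE 0.08, limma's adjusted p = 0.0345). Its *bruli(RNAi)* levels were 112, 95.3 and 90.5 TPM. Between the knockdowns it did not differ past the test (difference 0.07, adjusted p = 0.499 from limma). Without centring that difference was 0.25 (adjusted p = 0.046 from limma). The median of the 77 transcripts was -0.07, with 52 (67.5%) below 0, but it was 0.07 with 13 (16.9%) below 0 without centring, where 29.0% of all transcripts were below 0. Daily medians were -0.17, -0.02 and -0.02 at days 20, 25 and 30, beside -0.06, -0.03 and 0.002 over all transcripts.

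The 6 named calls outside the *mbnl* genes were small, and each missed the threshold when either library of day 25 or day 30 was left out (adjusted p of up to 0.190 from limma) and without the trend. comp1929_c0_seq1 and comp1153_c0_seq1 also missed it under each of the 3 other scalings, and comp12329_c0_seq1 after quantile normalization of the 6 libraries, with a pseudocount of 0.5, with no filter and without the day as a block.

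Splicing factors that the study screened beside the *mbnl* genes were measured in 16 tested transcripts of the *bruli*, *celf*, *esrp*, *rbfox*, *ptbp* and *nova* families. None passed the test in limma. At an unadjusted p under 0.05, 3 (18.8%) were lower and 1 (6.25%) was higher, beside 11.4% and 7.07% of all transcripts. The log2 fold changes lay between -0.34 and 0.21 with a median of -0.02. The ends of this range, named after their values were seen, were *esrp-2* and *bruli*. *esrp-2* (comp7995_c0_seq1), whose relatives in mammals regulate splicing in epithelia, had 20.6, 21.5 and 23.3 TPM in *mbnl(RNAi)* worms, against 25.4, 26.9 and 23.9 TPM in *control(RNAi)* worms. The groups did not overlap in TPM, and the log2 difference had an interval of -0.58 to -0.10 (adjusted p = 0.140 from limma). *bruli* (comp2592_c0_seq1), the CELF gene targeted by the other knockdown, had 96.7, 109.7 and 113 TPM in *mbnl(RNAi)* worms, against 82.9, 83.1 and 84.9 TPM in *control(RNAi)* worms. All 3 of its *mbnl(RNAi)* values were higher, with an interval of 0.01 to 0.41 (adjusted p = 0.239 from limma).

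Of the other groups of RBPs none had a member past the test in limma. For the 28 SR, TRA2 and hnRNP proteins, general regulators of splice site choice, the median log2 fold change was 0.002 and the range -0.18 to 0.12, with 1 (3.57%) lower and 0 higher at an unadjusted p under 0.05, beside 11.4% and 7.07% of all transcripts. For 16 neural-type RBPs the median was -0.02 and the range -0.30 to 0.17, with 2 (12.5%) lower and 0 higher at that level. For 13 proteins of small RNA pathways and mRNA decay the median was 0.001 and the range -0.17 to 0.33, with 0 lower and 2 (15.4%) higher. For 11 translation factors the median was -0.02 and the range -0.34 to 0.31, with 2 (18.2%) lower and 1 (9.09%) higher. Without centring the medians of all lists other than the *mbnl* genes were above 0, at 0.07 to 0.17, beside 0.11 over all transcripts. The lists share members, so these counts are not separate observations.

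RBPs enriched in neoblasts and the piwi and germ granule proteins, which protect the genome of stem cells through small RNAs, had no member past the test against control. Of 15 neoblast-enriched transcripts 0 were called and 1 (6.67%), *bruli*, was higher at an unadjusted p under 0.05, and the range was -0.20 to 0.30 with a median of 0.02. Of 7 piwi and germ granule transcripts 0 were called and 0 had an unadjusted p under 0.05, with a range of -0.04 to 0.12. Between the knockdowns, by contrast, 7 of these 7 and 13 of the 15 were higher in *mbnl(RNAi)* than in *bruli(RNAi)* worms. Of all transcripts 10.7% were higher and 14.2% lower in that test. The 15 include *bruli*, whose level in that test is set by the *bruli* dsRNA. comp1258_c0_seq1, whose best human hit is PIWIL1 and which is named here after its values were seen, had 232, 249 and 239.7 TPM in *mbnl(RNAi)* worms, 99.0, 92.2 and 81.9 TPM in *bruli(RNAi)* worms and 208, 219 and 224 TPM in *control(RNAi)* worms. It differed by 1.21 between the knockdowns (adjusted p = 3.94e-05 from limma) and by 0.02 between *mbnl(RNAi)* and *control(RNAi)*, with an interval of -0.15 to 0.18.

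The study lists orthologous gene groups with stem cell-regulated exons in both planarian and human, where the exons themselves need not match. Of 16 transcripts of these genes, 0 passed the test in limma, and the log2 fold changes ran from -0.35 to 0.13 with a median of -0.01. At an unadjusted p under 0.05, 2 were lower and 0 higher. Those shares are 12.5% and 0%, beside 11.4% and 7.07% of all transcripts. The 2 transcripts, named here after their values were seen, both have ANK3 as best human hit, an ankyrin that anchors membrane proteins to the cytoskeleton. comp1432_c0_seq1 had 79.4, 84.0 and 86.4 TPM in *mbnl(RNAi)* worms, against 92.9, 91.7 and 89.7 TPM in *control(RNAi)* worms (adjusted p = 0.139 from limma). comp3277_c0_seq1 had 36.0, 46.3 and 45.3 TPM in *mbnl(RNAi)* worms, against 54.4, 49.3 and 44.3 TPM in *control(RNAi)* worms, overlapping in TPM but not on the centred scale (adjusted p = 0.239 from limma). The table gives 1 level per transcript, and inclusion of the exons was not analysed here.

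**Figure D4:**
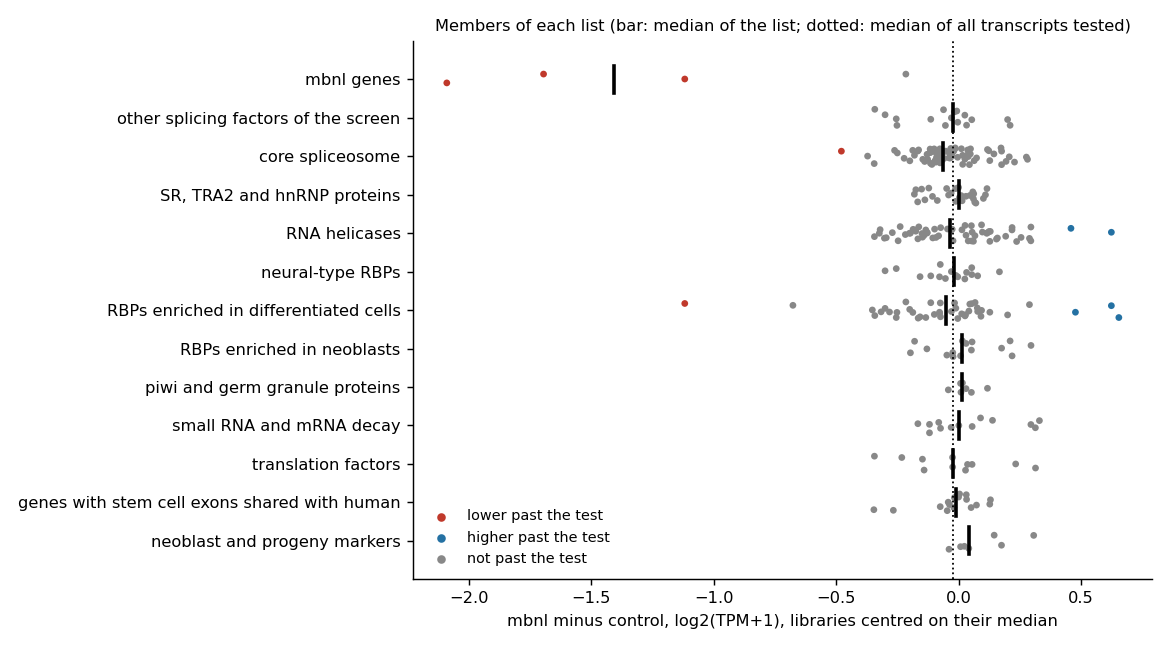
Log2 fold change (*mbnl(RNAi)* minus *control(RNAi)*, libraries centred) of every tested member of each list, 1 point per transcript, with the list's median as a black bar and the median of all 15636 transcripts, -0.02, as a dotted line. Apart from the *mbnl* genes, the medians lay between -0.07 and 0.04 and few members were past the test. Transcripts can stand in several lists. The list labelled as shared with human holds genes with stem cell exons in both species, which need not be the same exons.

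Markers of neoblasts did not differ between *mbnl(RNAi)* and *control(RNAi)* worms past the test. The piwi gene *smedwi-1* (comp659_c0_seq1) had 212, 242 and 219.8 TPM in *mbnl(RNAi)* worms, against 193, 206 and 212 TPM in *control(RNAi)* worms. The TPM values of *mbnl(RNAi)* worms were higher, but relative to the median transcript the groups overlapped, with a log2 fold change of 0.01 and an interval of -0.17 to 0.18 (adjusted p = 0.967 from limma). *pcna* (comp1920_c0_seq1), the clamp of DNA replication, had 60.2, 63.0 and 64.8 TPM in *mbnl(RNAi)* worms, against 56.4, 55.2 and 56.9 TPM in *control(RNAi)* worms. Its TPM values did not overlap either, but the centred ones did. Its log2 fold change was 0.02 with an interval of -0.16 to 0.21 (adjusted p = 0.908 from limma). *p53* (comp5563_c0_seq1), the tumour suppressor homologue of epidermally fated neoblasts, had 42.6, 45.0 and 40.8 TPM in *mbnl(RNAi)* worms, against 41.8, 39.2 and 39.1 TPM in *control(RNAi)* worms. Its log2 fold change was -0.04 (interval -0.24 to 0.16, adjusted p = 0.859 from limma), and 0.09 without centring. *soxP-2* (comp8483_c0_seq1), a transcription factor of the SoxP family, had 13.7, 15.1 and 12.3 TPM in *mbnl(RNAi)* worms, against 11.5, 11.7 and 12.8 TPM in *control(RNAi)* worms, with overlapping groups and a log2 fold change of 0.04 (interval -0.24 to 0.33, adjusted p = 0.896 from limma).

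The differences of the progeny markers were uneven over the days, and *prog-1* and *prog-1-1* had wider intervals than the neoblast markers. *prog-1* (comp332_c0_seq1), expressed in early postmitotic progeny fated to epidermis, had 481, 456 and 323 TPM in *mbnl(RNAi)* worms, against 391, 268 and 381 TPM in *control(RNAi)* worms. The level was above control at days 20 and 25 and below it at day 30, so that the log2 fold change of 0.15 had an interval of -0.26 to 0.55 (adjusted p = 0.718 from limma). *prog-1-1* (comp478_c0_seq1), of the same family, had 573, 529 and 408 TPM in *mbnl(RNAi)* worms, against 487, 319 and 419 TPM in *control(RNAi)* worms. It followed the same pattern, with a log2 fold change of 0.18 and an interval of -0.16 to 0.51 (adjusted p = 0.579 from limma). For both, the difference of day 25 was the largest, at 0.66 for *prog-1* and 0.62 for *prog-1-1*, and the *control(RNAi)* library of day 25 was the lowest of the 3 controls.

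*prog-2-1* (comp69_c0_seq1), a further marker of early progeny, had 2501, 2665 and 2229 TPM in *mbnl(RNAi)* worms, against 1985, 1695 and 1771 TPM in *control(RNAi)* worms. It was above control at 3 of 3 days, by 0.16, 0.54 and 0.22 on the centred log2 scale, where the groups overlapped. The mean of 0.31 had an interval of 0.08 to 0.54, an unadjusted p of 0.0159 and an adjusted p = 0.155 from limma. It passed the test, at 0.44 and 0.55, only under the 2 quantile normalizations of 16 alternatives. The *prog* transcripts belong to a family of related sequences, among which the counting could split reads, so their single levels are uncertain.

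Leaving out either library of day 25 turned the log2 fold change of *smedwi-1*, *pcna*, *prog-1*, *prog-1-1* and *soxP-2* below 0, between -0.11 for *prog-1* and -0.0035 for *pcna*. All 7 markers were higher in *mbnl(RNAi)* than in *bruli(RNAi)* worms in the direct test, where 10.7% of all transcripts were higher and 14.2% lower. The differences ran from 0.93 for *p53* (adjusted p = 0.00520 from limma) to 3.55 for *smedwi-1* (adjusted p = 0.000104 from limma), with 1.58 for *prog-2-1* (adjusted p = 0.00159 from limma). The *bruli(RNAi)* levels were 29.6, 18.4 and 13.1 TPM for *p53* and 26.8, 17.2 and 8.63 TPM for *smedwi-1*. Each of these values was below the *control(RNAi)* value of its day.

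**Figure D5:**
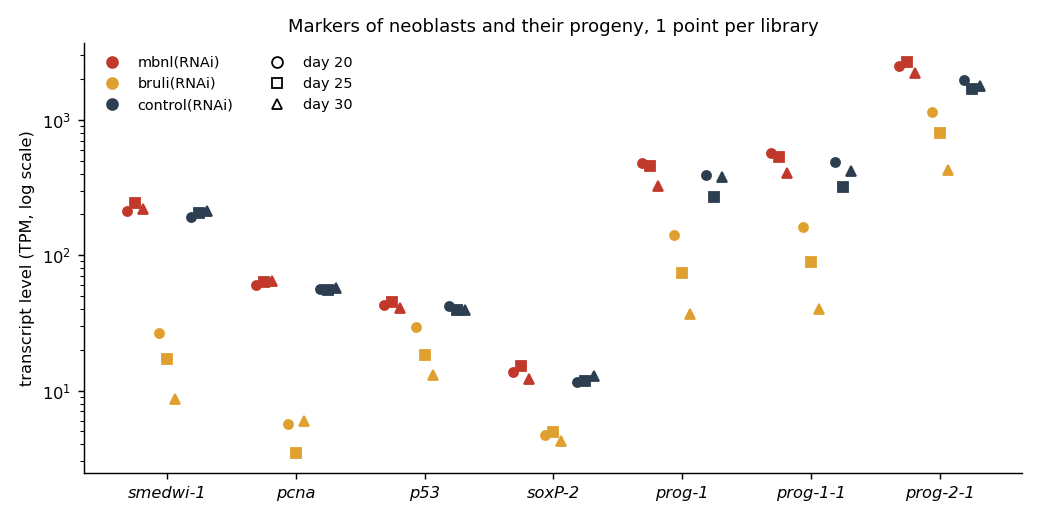
TPM (log scale) of 7 markers of neoblasts and their progeny in each library, with *mbnl(RNAi)* (red), *bruli(RNAi)* (orange) and *control(RNAi)* (blue) from left to right and symbols for the day. *mbnl(RNAi)* and *control(RNAi)* points lie close together for *smedwi-1*, *pcna*, *p53* and *soxP-2*, and the *mbnl(RNAi)* points lie above all *control(RNAi)* points, in TPM, for *smedwi-1*, *pcna* and *prog-2-1*.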

How the data were processed

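Adult whole worms were sequenced after poly(A) selection. The authors trimmed reads with Flexbar, filtered out rRNA, mapped to the planarian reference transcriptome with Bowtie2 2.1.0 and counted with HTSeq 0.6.1p1, and the submitters' processing notes also name CASAVA 1.8.2. They deposited TPM values; how counts became TPM is not given in the sources used here, and depth is unknown. Each deposited column sums to 1000000.

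Here log2(TPM+1) was tested with limma 3.58.1 in R 4.3.3 (mean-variance trend, day as block, 2 residual and 4.82 prior degrees of freedom), with Benjamini-Hochberg adjustment at 0.05. The day pairs libraries because the study sets each knockdown against the control of its day. Same-day deviations from the group means correlated at 0.19, 0.22 and -0.03 for days 20, 25 and 30, and those of different days at -0.22 to 0.04. The same-day value of day 30 was below every different-day value that involves a library of day 30. The comparison with *bruli(RNAi)* used 9 libraries. Figures were drawn with matplotlib 3.10.9 in Python 3.11.15.

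The members and lists were chosen with earlier results of these data known. Lists came from the study's tables of RBPs, spliceosome proteins, screened splicing factors and genes with stem cell exons in both planarian and human. Identifiers of the 7 markers came from earlier work on these data and were not checked against sequence. Named were the *mbnl* genes, the markers, up to 4 called members per list and direction, the 10 largest calls with a name per direction, 2 unnamed calls per direction and those that changed with day; exceptions are marked. Gene names of other transcripts were not used here. The Smed-H2B and Smedwi-2 libraries, 1 each without a day, entered no test. Alternatives covered scaling, pseudocounts of 0.5 and 5, filters, block, trend, libraries fitted, a threshold of 1 and leaving out each library.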

Additional observations from a re-analysis of the deposited data

Results flagged for a closer look

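The difference of comp709_c0_seq1 between *mbnl(RNAi)* and *control(RNAi)* worms changed with the time point, by -4.05 on the log2 scale per 10 days. It passed the test of change with day (adjusted p = 0.0449 from limma), in a fit with 1 residual degree of freedom. Without the trend it missed the threshold (adjusted p = 0.540 from limma).

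*mbnl-like-3* stood at 4.12 TPM in the *Smed-H2B(RNAi)* library, which no comparison here uses and for which no day is given, above the highest *control(RNAi)* value of 3.03 TPM.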

How the results depend on the processing

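Of the alternatives, pseudocounts of 0.5 and 5, no filter and a filter in every library kept the count of 423 calls and its 2 directions within 1.5 times. Quantile normalization of the 6 libraries gave 179 calls in all, 100 of them lower. Without centring 96 were lower and 207 higher, with quantile-normalized controls 155 and 332, and under all 4 scalings, an alternative added after seeing the data, 80 and 66. Without the day as a block 225 were called (154 lower and 71 higher), of which 144 and 60 were shared with the blocked fit. With all 9 time course libraries 783 were called (570 lower and 213 higher), and without the trend 3 (3 lower and 0 higher, with 2567 at an unadjusted p under 0.05 in limma). Leaving out 1 library gave 120 to 768 calls, 87 to 482 of them lower and 33 to 288 higher; the fit then rests on the 2 complete days. The 1 transcript that changed with day became 5 without centring, 0 without the trend and 2 with 9 libraries; leaving out a library was not possible there, since no residual degree of freedom remains. The count against *bruli(RNAi)*, 3897, stayed within 1.5 times under its 4 alternatives. Past 0.7 at all 3 days, 41 lower and 55 higher transcripts became 72 and 27 with centring and 21 and 15 at a threshold of 1.

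Of the 21 named transcripts only markers changed sign. *p53* was at 0.093 without centring and at 0.094 with quantile-normalized controls, and without 1 library at -0.0999 to 0.013. Without 1 library *smedwi-1* ranged from -0.047 to 0.044, *pcna* from -0.0035 to 0.073, *prog-1* from -0.11 to 0.39, *prog-1-1* from -0.045 to 0.34 and *soxP-2* from -0.056 to 0.147. Over the named transcripts 46 of 333 values missed the threshold where the reported value passed it, 2 passed it where the reported one did not, and 14 changed sign; the cause was not tested. The depth of the libraries was not used, so counting error could not be set beside any value.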
